A study of Mus musculus with 108 samples.

Results

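The PYHIN genes examined here were Mndal, Ifi202b, Ifi203, Ifi204 and Aim2, 5 members of a family of interferon-activated genes, and they were followed across 6 inbred mouse strains within each of 6 tissues. Every Affymetrix probe set that the platform annotation assigned to exactly 1 of these genes was taken, which gave 6 probe sets of 5 genes out of 34945 single-gene probe sets of 18193 genes. Mndal was read by 1426906_at and 1452231_x_at, Ifi202b by 1421551_s_at, Ifi203 by 1442828_at, Ifi204 by 1419603_at and Aim2 by 1426619_at. Values are log2 hybridisation signals, so a difference of 1 is a doubling of signal, and levels of different probe sets were not set against each other. The strains were 129S2, A/J, AKR/J, C3HeB/FeJ, DBA2/J and C57BL/6J, all males aged 11 to 14 weeks, and lung, liver, heart, kidney, brain and testis were taken, which makes 36 groups of 3 arrays. All mice were unmanipulated as far as the labels say, and no interferon or other treatment is named, so induction was not measured. The 129S2 mice came from another supplier than the other 5 strains, and for that strain the supplier and the strain cannot be told apart. By the array titles the tissues came from 22 animals, with C57BL/6J brain, heart and lung from animals 2 to 4 and C57BL/6J kidney, liver and testis from animals 10 to 12. In 129S2 kidney, titles name animals 2, 3 and 4 but another label gives arrays 3 and 4 to 1 animal, so that group may hold 2 animals. Each strain is an inbred line, so the animals of a group share 1 genotype, and only males were measured. Every strain was set against C57BL/6J, from which the mouse reference genome was built.

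PYHIN proteins join a HIN domain, which binds DNA, to a pyrin domain, which binds the pyrin domains of other proteins, and their genes lie side by side on the distal part of chromosome 1. Aim2 senses DNA in the cytosol and assembles an inflammasome with the adaptor Pycard and caspase-1. Ifi202b, a mouse gene, encodes a protein without the pyrin domain that can hold Aim2 in check, and Ifi204 has been tied to DNA sensing and to the growth and differentiation of mouse myeloid cells. Mndal is named for its likeness to the myeloid cell nuclear differentiation antigen, and Ifi203 encodes another nuclear member of the family. The genes are known for induction by interferon and for expression in white blood cells, above all macrophages.

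Promoter windows are shown for the 4 members that the RefSeq promoter table held (build GRCm38.p6, chromosome 1), because Mndal and Ifi202b differed most among strains and in opposite directions. Each window runs from 250 bases before to 50 bases after an annotated start, 5′ to 3′ on the gene's own strand. Ifi204 is named only. The windows lie at chr1:173880138-173880437 (minus strand) for Mndal, chr1:173942443-173942742 (minus strand) for Ifi203, chr1:173982795-173983094 (minus strand) for Ifi202b and chr1:173420354-173420653 (plus strand) for Aim2. Capitals mark the match to the core of the interferon-stimulated response element, searched as GAAANNGAAA on both strands.
Mndal: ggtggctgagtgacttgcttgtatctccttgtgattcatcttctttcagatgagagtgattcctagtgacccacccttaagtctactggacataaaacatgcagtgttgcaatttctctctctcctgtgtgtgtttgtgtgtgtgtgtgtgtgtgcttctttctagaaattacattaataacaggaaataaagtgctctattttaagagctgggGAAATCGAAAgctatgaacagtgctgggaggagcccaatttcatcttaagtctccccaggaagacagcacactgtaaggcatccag
Ifi203: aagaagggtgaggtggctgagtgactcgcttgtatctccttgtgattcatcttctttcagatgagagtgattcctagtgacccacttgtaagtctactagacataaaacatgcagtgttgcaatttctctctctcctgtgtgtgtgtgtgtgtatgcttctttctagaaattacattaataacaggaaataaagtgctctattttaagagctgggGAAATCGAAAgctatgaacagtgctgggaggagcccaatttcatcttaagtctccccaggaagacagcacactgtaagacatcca
Ifi202b: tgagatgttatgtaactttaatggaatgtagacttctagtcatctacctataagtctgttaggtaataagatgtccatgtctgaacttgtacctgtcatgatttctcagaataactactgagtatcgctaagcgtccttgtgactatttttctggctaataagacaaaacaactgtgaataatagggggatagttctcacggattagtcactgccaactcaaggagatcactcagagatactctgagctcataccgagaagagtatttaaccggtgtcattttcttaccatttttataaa
Aim2: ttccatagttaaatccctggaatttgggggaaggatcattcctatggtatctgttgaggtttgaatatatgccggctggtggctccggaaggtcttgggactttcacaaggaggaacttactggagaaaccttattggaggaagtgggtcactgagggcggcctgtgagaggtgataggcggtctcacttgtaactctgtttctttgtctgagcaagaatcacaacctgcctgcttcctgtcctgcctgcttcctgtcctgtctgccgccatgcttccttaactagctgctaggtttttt
The Mndal and Ifi203 windows hold the same letters, GAAATCGAAA, with the first base at position -36 and -35 from the start. These windows were identical at 282 of 289 aligned positions (97.6%, with 22 gap positions). The Mndal window matched that of Ifi202b at 61.6% of aligned positions (90 gap positions) and that of Aim2 at 54.6% (62 gap positions). Every other pair of member windows, further starts included, also lay between 54.6% and 65.9%, so 61.6% marks no special likeness. No match to the response element core lay in the windows of Ifi202b and Aim2. Across all 32851 promoter windows of the same length, 3.44% held a match, against 10 of 14 PYHIN windows in the table, from 9 of 12 genes. Mndal and Ifi203 each had overlapping windows, and windows of related genes can be near copies, so the PYHIN windows are not separate observations. The core of the interferon gamma activated site, searched as TTCNNNGAA, which reads the same on both strands and shares no position with the capitals shown, had 1 match in the Ifi202b window and none in the other 3 printed windows, and it occurred in 8.3% of all windows. The table also held a further start for Mndal, whose window had a match on the opposite strand, and a further start for Ifi203, whose window had none. The letters are those of the reference genome, which is C57BL/6J sequence, and the other strains' sequences were not analysed here.

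Strain was first tested as a whole within each tissue, with limma's moderated F test across the 6 strains and Benjamini-Hochberg adjustment over all 34945 probe sets (called at an adjusted p under 0.05). The PYHIN probe sets passed in 24 of 36 tests. In lung all 6 passed, where 31.7% of all probe sets did. In heart, kidney, liver and testis 4 of 6 passed, beside 19.2%, 41.5%, 27.4% and 33.0% of all probe sets. In brain 2 of 6 passed, both of them Mndal, beside 21.8% of all probe sets. Strain differences were common in every tissue, so a call alone says little, and the size and direction of the PYHIN differences are given below. Mndal passed in all 6 tissues with both probe sets, Ifi202b in 5, Ifi203 and Ifi204 in 3 each and Aim2 in lung alone.

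The size of a strain difference depended on the tissue for all 6 probe sets by limma's F test of the 25 interaction contrasts over all arrays, a result that 65.3% of all probe sets shared. The adjusted p was 3.76e-58 and 1.84e-32 for the Mndal probe sets, 4.26e-30 for Ifi204, 3.94e-27 for Ifi202b, 0.000252 for Ifi203 and 0.0194 for Aim2. For Aim2 the call rested on 129S2: without animal 129S2 1 its adjusted p was 0.057, and without animal 129S2 3 it was 0.0597. Levels were read within a tissue, because array medians differed between tissues (from 4.95 to 5.01 in liver up to 6.80 to 6.83 in lung) and were near equal within each. For C57BL/6J, brain, heart and lung came from other animals than kidney, liver and testis. Between these sets of tissues, tissue and animals cannot be told apart in that strain. As it is the reference, this also holds for every difference from C57BL/6J and for the interaction test. By the titles, 129S2 also changed animals in part between these sets.

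Each strain was then set against C57BL/6J with limma in the same fits, and the comparisons of a tissue share the 3 C57BL/6J arrays. Mndal was called in 23 of 30 comparisons with each probe set and was lower than in C57BL/6J in all of them. Ifi202b was called in 25 of 30 and was higher than in C57BL/6J in all of them. Ifi203 was called in 11, all lower, Ifi204 in 8, of which 2 were higher and 6 lower, and Aim2 in 1, higher. The heat map of these differences shows Mndal and Ifi202b as opposite bands.

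**Figure D1:**
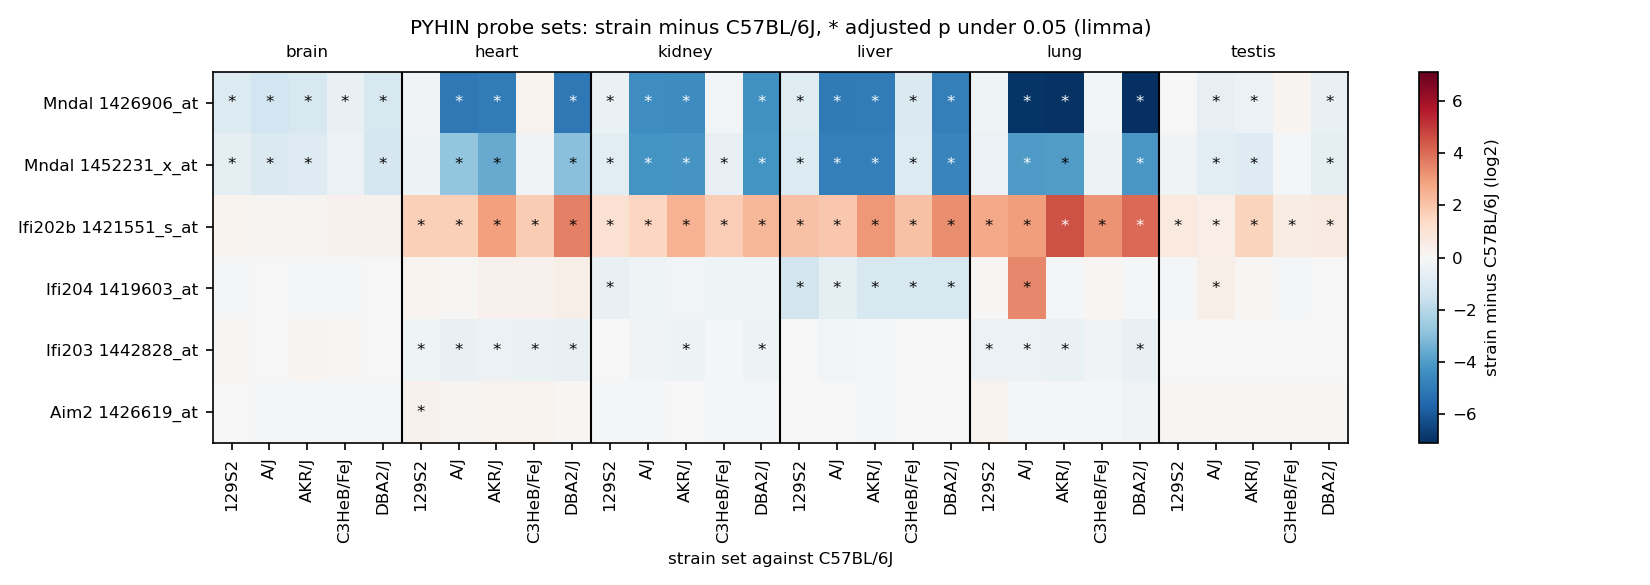
Difference of each strain from C57BL/6J (log2, colour scale) for the 6 PYHIN probe sets in 6 tissues, with 3 arrays per group; an asterisk marks an adjusted p under 0.05 by limma. Both Mndal probe sets are lower in A/J, AKR/J and DBA2/J, down to -7.07 in DBA2/J lung, and Ifi202b is higher in all 5 strains outside brain, up to 4.52 in AKR/J lung.

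By tissue, these calls compare with the whole array as follows. In lung, A/J had 5 of 6 PYHIN probe sets called beside 9.96% of all probe sets, AKR/J had 4 beside 11.2% and DBA2/J had 4 beside 10.5%. The other lung comparisons had fewer, with 2 in 129S2 beside 11.4% and 1 in C3HeB/FeJ beside 13.6%. In C3HeB/FeJ lung the single call was Ifi202b, since both Mndal probe sets there stood within 0.35 of C57BL/6J.

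Liver was the most even tissue, with 4 of 6 probe sets called in each of the 5 strains. The share of all probe sets called was 15.6% in 129S2, 17.3% in A/J, 11.6% in AKR/J, 11.1% in C3HeB/FeJ and 9.82% in DBA2/J. Mndal and Ifi204 were lower and Ifi202b higher than in C57BL/6J in each of these strains. In heart, 4 were called in A/J beside 5.10% of all probe sets, 4 in AKR/J beside 4.68% and 4 in DBA2/J beside 11.4%. Heart of 129S2 had 3 beside 5.14%, and heart of C3HeB/FeJ had 2 beside 7.72%, which were Ifi202b and Ifi203.

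In kidney, 129S2, AKR/J and DBA2/J had 4 called beside 19.7%, 14.6% and 19.1%, A/J had 3 beside 16.3%, and C3HeB/FeJ had 2 beside 18.4%. In testis, A/J had 4 beside 13.7%, AKR/J and DBA2/J had 3 beside 19.6% and 12.6%, and 129S2 and C3HeB/FeJ had 1 each beside 14.3% and 11.2%. That single testis call was Ifi202b in both strains. In brain, 2 were called in 129S2, A/J, AKR/J and DBA2/J beside 10.5%, 9.84%, 8.11% and 11.3%, and 1 in C3HeB/FeJ beside 9.39%. All brain calls were Mndal, lower than in C57BL/6J.

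Mndal split the strains into a dim and a bright trio, and the split was widest in lung. On probe set 1426906_at the lung arrays read 3.94, 3.67 and 3.52 in A/J, 3.67, 3.51 and 3.73 in AKR/J, and 3.62, 3.62 and 3.55 in DBA2/J. They read 10.44, 10.24 and 10.40 in 129S2, 10.41, 10.68 and 10.28 in C3HeB/FeJ, and 10.88, 10.58 and 10.55 in C57BL/6J. No array of the dim strains came near any array of the bright ones, and within each trio neighbouring strains overlapped. The strain means spanned 7.07, with 3.60 ± 0.0394 in DBA2/J against 10.67 ± 0.183 in C57BL/6J (SD, n = 3 each), a 134-fold ratio of signals (adjusted p = 1.56e-17 for the F test). The dim signals lie far under the median of the lung arrays, and whether they, or the low signals of Ifi202b and Ifi204 below, were above background was not tested, so the folds are ratios of signals and may understate those of transcripts. Only 2 of the 34945 probe sets had a wider range of strain means in lung.

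In lung, Mndal on 1426906_at was lower than in C57BL/6J by 6.96 in A/J, 7.04 in AKR/J and 7.07 in DBA2/J (differences -6.96, -7.04 and -7.07, SE 0.119 each). The adjusted p was 1.47e-15, 1.24e-15 and 1.15e-15. The bright strains did not pass against C57BL/6J: the difference was -0.31 in 129S2 (95% interval -0.56 to -0.06, adjusted p = 0.116) and -0.21 in C3HeB/FeJ (-0.47 to 0.04, adjusted p = 0.296).

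The same trio was dim in heart, kidney and liver. In heart Mndal (1426906_at) averaged 3.36 ± 0.116 in A/J, 3.49 ± 0.0999 in AKR/J and 3.38 ± 0.207 in DBA2/J, beside 8.19 ± 0.238 in 129S2, 8.67 ± 0.244 in C3HeB/FeJ and 8.44 ± 0.162 in C57BL/6J (SD, n = 3 each). The range of means, 5.31, was the 8th widest of all probe sets in heart (adjusted p = 2.96e-16). In kidney it averaged 3.44 ± 0.0321 in A/J, 3.38 ± 0.139 in AKR/J and 3.53 ± 0.194 in DBA2/J, beside 7.38 ± 0.259 in 129S2, 7.62 ± 0.296 in C3HeB/FeJ and 7.84 ± 0.153 in C57BL/6J (range 4.46, adjusted p = 7.7e-16). In liver it averaged 2.86 ± 0.169 in A/J, 2.94 ± 0.155 in AKR/J and 3.03 ± 0.0825 in DBA2/J, beside 7.03 ± 0.137 in 129S2, 6.88 ± 0.261 in C3HeB/FeJ and 7.91 ± 0.129 in C57BL/6J (range 5.04, adjusted p = 8.81e-17). In heart and kidney the bright strains overlapped from neighbour to neighbour. In liver C57BL/6J stood above both 129S2 and C3HeB/FeJ with no array in common, by differences of -0.87 (SE 0.123, adjusted p = 5.36e-05) and -1.03 (SE 0.123, adjusted p = 1.1e-05). Macrophage markers moved with this: the list averaged 7.91 in 129S2 liver and 7.75 in C3HeB/FeJ liver, against 8.75 in C57BL/6J liver, and its part in the result was not tested. In such bulk samples fewer cells of a type and less RNA per cell cannot be told apart.

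Brain and testis had low Mndal signal in every strain, below the array medians, and narrower differences. In brain the arrays of 1426906_at read 3.55, 3.44 and 3.77 in 129S2, 3.07 to 3.70 in A/J, AKR/J and DBA2/J, and 4.12, 4.00 and 3.91 in C3HeB/FeJ, against 4.51, 4.57 and 4.56 in C57BL/6J, which stood above all others. The brain difference from C57BL/6J was -0.54 in C3HeB/FeJ (SE 0.122, adjusted p = 0.00828), -0.96 in 129S2 (adjusted p = 5.17e-05), and between -1.13 and -1.38 in DBA2/J, AKR/J and A/J (SE 0.122). In testis the range was 0.74, with A/J at 3.25 ± 0.0591, AKR/J at 3.37 ± 0.139 and DBA2/J at 3.29 ± 0.0557, against 3.81 ± 0.178 in C57BL/6J (adjusted p of the differences 0.000475, 0.00325 and 0.00103). The macrophage list was also highest in C57BL/6J brain, where its arrays read 7.57 to 7.63, against at most 7.51 in A/J and less in the remaining strains. Its part in the brain result was not tested.

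**Figure D2:**
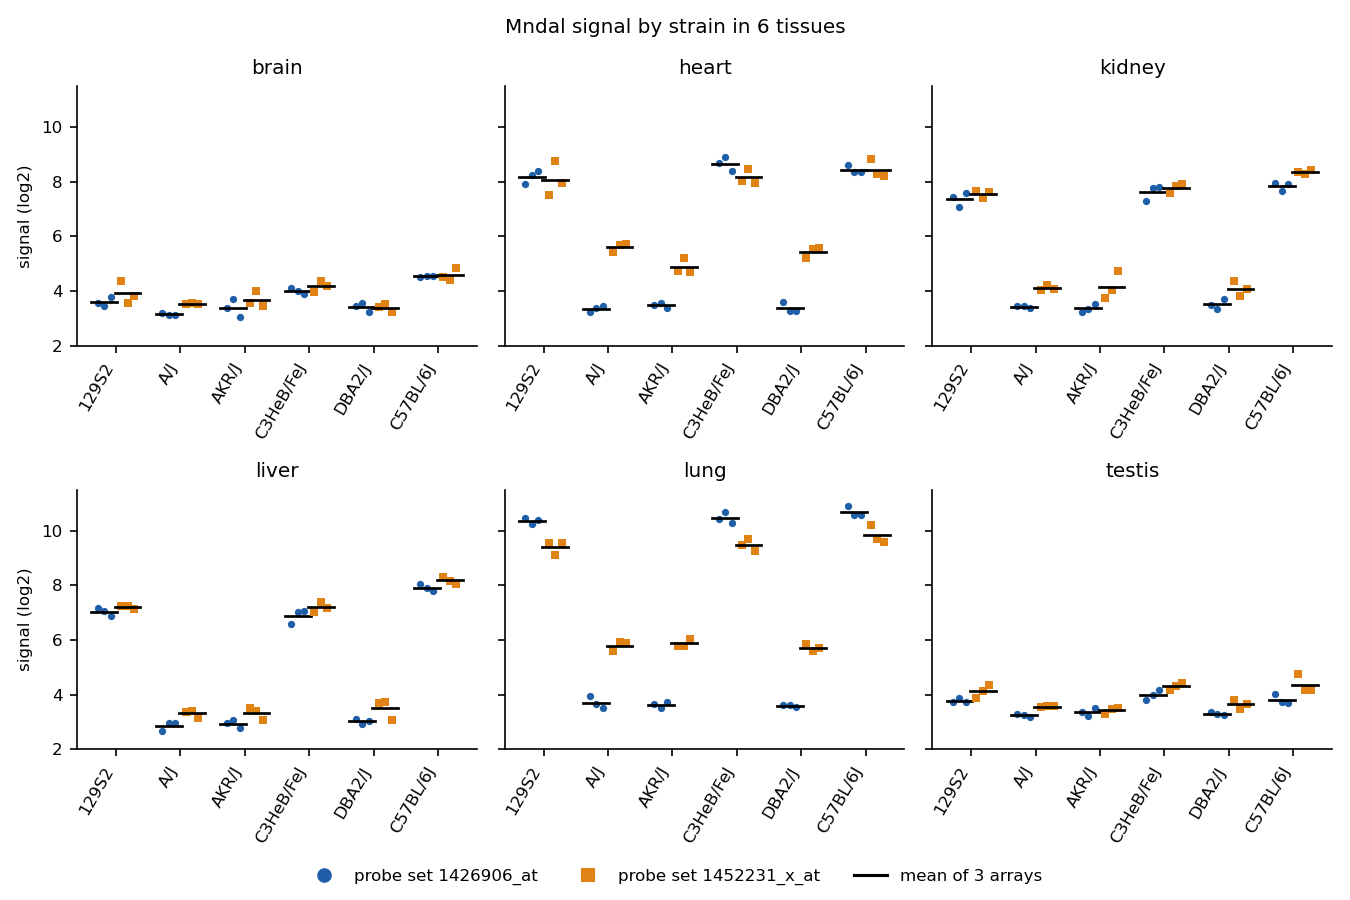
Mndal signal (log2, y axis) on each array by strain (x axis) in 6 tissues, for probe sets 1426906_at (circles) and 1452231_x_at (squares), with bars at the mean of 3 arrays. A/J, AKR/J and DBA2/J sit low with both probe sets in heart, kidney, liver and lung, for example at 3.71, 3.63 and 3.60 in lung on 1426906_at, against 10.67 in C57BL/6J.

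The other Mndal probe set, 1452231_x_at, drew the same split with a smaller span in lung. There it averaged 5.79 ± 0.188 in A/J, 5.87 ± 0.152 in AKR/J and 5.71 ± 0.126 in DBA2/J, beside 9.40 ± 0.239 in 129S2, 9.47 ± 0.203 in C3HeB/FeJ and 9.82 ± 0.336 in C57BL/6J (range 4.11, adjusted p = 1.08e-12). The range was 3.56 in heart, 4.27 in kidney and 4.86 in liver, against 5.31, 4.46 and 5.04 on 1426906_at. After the mean of each tissue was subtracted, the 2 probe sets followed each other over the 36 group means with r = 0.96, a description, since they read the same gene on the same arrays. Probe sets whose names end in _x_at contain probes shared with other transcripts, and how much other PYHIN transcripts added to 1452231_x_at was not tested. Nor was the effect of sequence differences between the strains under the probes, which can lower a hybridisation signal with no change in transcript level.

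Some small Mndal differences among the bright strains depended on single arrays and others did not. In kidney the limma call of 129S2 on 1452231_x_at (-0.8) held without any 1 array, with adjusted p of at most 0.0265. The brain calls on 1426906_at of 129S2 (-0.96) and C3HeB/FeJ (-0.54) held too, with at most 0.000477 and 0.0426. The call of 129S2 against C57BL/6J in kidney on 1426906_at (-0.46, adjusted p = 0.0262) was lost without 129S2 kidney array 3 (-0.32, adjusted p = 0.157), 1 of the arrays that may share an animal, without C57BL/6J kidney array 10 (-0.41, 0.0926) or without array 12 (-0.44, 0.0839). On 1452231_x_at the call of C3HeB/FeJ against C57BL/6J in kidney (-0.59, adjusted p = 0.0295) was lost without any of C3HeB/FeJ arrays 1 and 2 and C57BL/6J arrays 10, 11 and 12, with adjusted p between 0.0508 and 0.126. The call of 129S2 in brain on that probe set (-0.66, adjusted p = 0.0241) was lost without 129S2 array 2 or 3 or C57BL/6J array 4, with adjusted p between 0.0857 and 0.119. The macrophage list was highest in C57BL/6J kidney too, at 6.90 with arrays from 6.84 to 6.94. It averaged 6.36 in 129S2 kidney (arrays up to 6.46), 6.47 in C3HeB/FeJ kidney (up to 6.55) and 6.51 to 6.77 in the dim strains. Its part in these kidney calls, and in that of Ifi204 below, was not tested.

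Ifi202b ran the other way. It was lowest in C57BL/6J in all 6 tissues and highest in AKR/J or DBA2/J. Its lung arrays read 9.07, 9.05 and 8.85 in AKR/J, 8.67, 8.35 and 8.41 in DBA2/J, 7.34, 7.40 and 8.21 in C3HeB/FeJ, 7.38, 7.63 and 7.38 in A/J, and 7.18, 7.07 and 7.23 in 129S2, against 4.42, 4.46 and 4.53 in C57BL/6J. Every array of the 5 strains was above every C57BL/6J array. AKR/J and DBA2/J stood apart from each other and from the rest, A/J stood apart from 129S2, and C3HeB/FeJ overlapped A/J. The means spanned 4.52 (8.99 ± 0.123 in AKR/J against 4.47 ± 0.0567 in C57BL/6J, SD, n = 3 each), a 23.0-fold difference of signal with an adjusted F p of 5.39e-11.

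In lung the Ifi202b difference from C57BL/6J was 4.52 in AKR/J, 4.01 in DBA2/J, 3.18 in C3HeB/FeJ, 2.99 in A/J and 2.69 in 129S2, each with an SE of 0.166 and an adjusted p of at most 7.97e-09. The order of strains was not that of Mndal: A/J, dim for Mndal, lay between C3HeB/FeJ and 129S2, both bright for it.

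In heart and liver DBA2/J and AKR/J again lay above the other strains. In heart Ifi202b averaged 7.62 ± 0.0210 in DBA2/J and 6.97 ± 0.0327 in AKR/J, 5.86 ± 0.0678 in C3HeB/FeJ, 5.73 ± 0.641 in 129S2 and 5.72 ± 0.159 in A/J, against 4.05 ± 0.00881 in C57BL/6J (range 3.57, adjusted p = 3.25e-09). Heart array 129S2 2 read 6.46, above the other 129S2 hearts at 5.49 and 5.25, and without any single array the 129S2 difference stayed between 1.32 and 1.93. In liver it averaged 7.08 ± 0.364 in DBA2/J, 6.88 ± 0.101 in AKR/J, 5.89 ± 0.123 in 129S2, 5.87 ± 0.204 in C3HeB/FeJ and 5.70 ± 0.0243 in A/J, against 3.79 ± 0.195 in C57BL/6J (range 3.29, adjusted p = 5.25e-11).

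Kidney and testis had narrower ranges. In kidney Ifi202b averaged 6.31 ± 0.345 in AKR/J, 6.20 ± 0.169 in DBA2/J, 5.59 ± 0.0927 in C3HeB/FeJ, 5.36 ± 0.147 in A/J and 4.90 ± 0.187 in 129S2, against 3.82 ± 0.251 in C57BL/6J (range 2.49, adjusted p = 1.6e-09). In testis AKR/J stood alone at 6.07 ± 0.0776, with 129S2, DBA2/J, C3HeB/FeJ and A/J between 5.19 and 4.96, against 4.49 ± 0.161 in C57BL/6J (range 1.59, adjusted p = 2.8e-08). The testis differences from C57BL/6J were 1.59 in AKR/J (SE 0.104, adjusted p = 2e-09) and 0.48 to 0.70 in the other 4 strains, with adjusted p of at most 0.00358. In brain Ifi202b did not pass (adjusted p = 0.249): the means lay between 4.09 and 4.24 in the other 5 strains, against 3.91 in C57BL/6J, and the difference was 0.33 in DBA2/J (95% interval 0.10 to 0.57, adjusted p = 0.0634).

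The highest 2 strains, AKR/J and DBA2/J, were also set against each other by limma. In testis AKR/J was higher by 0.97 (SE 0.104, adjusted p = 1.74e-06), where 17.3% of all probe sets differed between these strains. In heart AKR/J minus DBA2/J was -0.65 (95% interval -1.05 to -0.24, adjusted p = 0.0501) and in lung it was 0.52 (0.16 to 0.87, adjusted p = 0.0614), beside 6.78% and 10.4% of all probe sets. Neither passed, although their arrays did not overlap in either tissue. Ifi202b is read by a probe set ending in _s_at, a name for probes that can hybridise to several transcripts of a family, and what other PYHIN transcripts add to it was not tested.

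**Figure D3:**
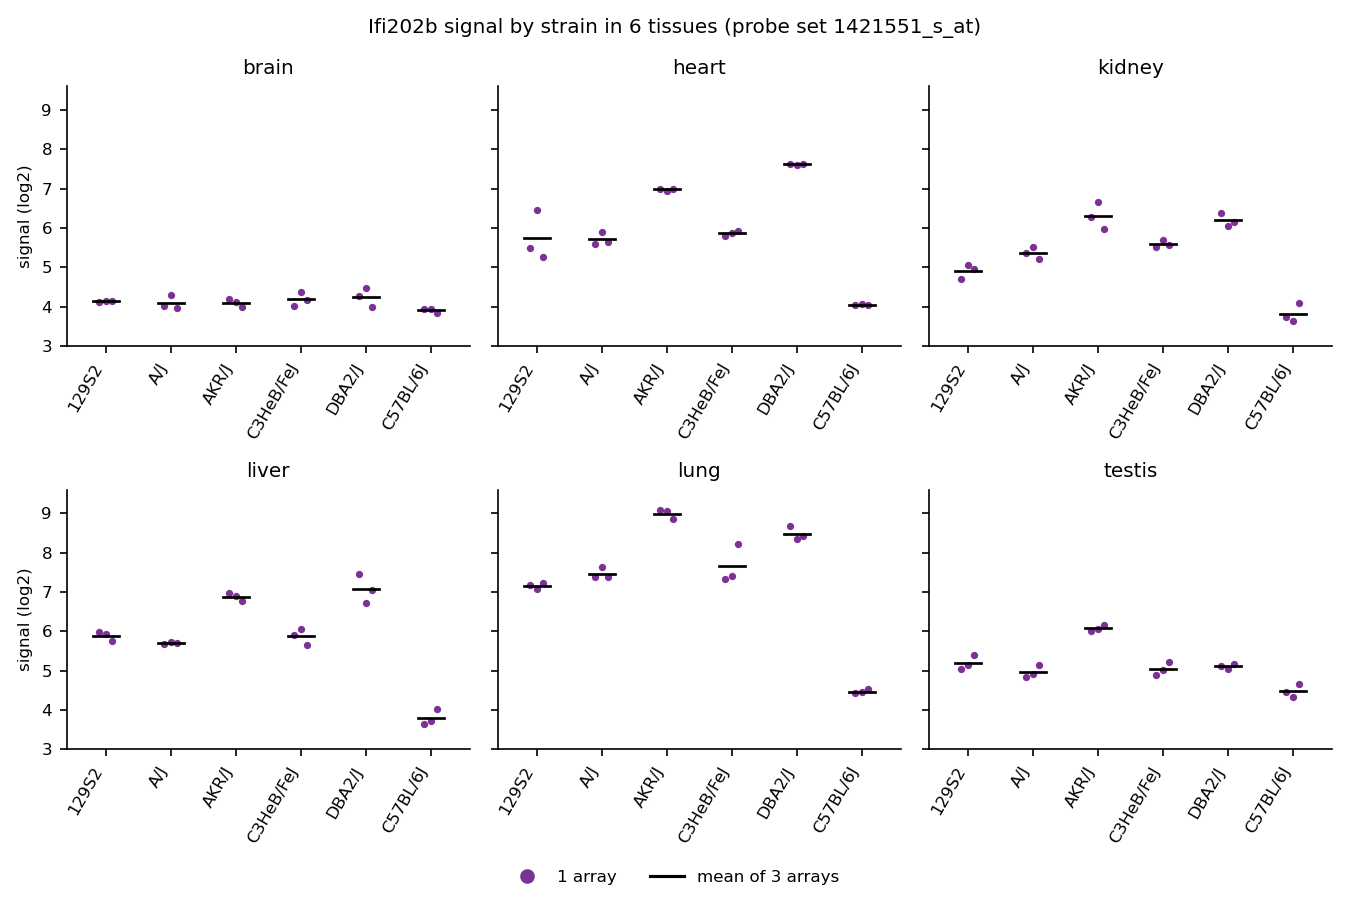
Ifi202b signal (log2, y axis) on each array by strain (x axis) in 6 tissues, with bars at the mean of 3 arrays. C57BL/6J is lowest in every tissue, at 4.47 in lung against 8.99 in AKR/J and 8.48 in DBA2/J.

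Ifi204 lay under the median of its tissue in 35 of 36 groups, and the exception was A/J lung. Its lung arrays read 8.0, 7.64 and 7.71 in A/J, against 4.64, 4.15 and 4.30 in C57BL/6J. The remaining lung arrays of 129S2, AKR/J, C3HeB/FeJ and DBA2/J read between 3.97 and 4.73 and overlapped C57BL/6J. The A/J difference from C57BL/6J was 3.42 (SE 0.149, 10.7-fold, adjusted p = 9.83e-11), with means of 7.78 ± 0.193 and 4.36 ± 0.253 (SD, n = 3 each). Differences in the other strains ran from -0.12 in DBA2/J (95% interval -0.43 to 0.20, adjusted p = 0.757) to 0.16 in C3HeB/FeJ (-0.15 to 0.48, adjusted p = 0.565).

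In testis A/J was again highest for Ifi204, at 3.73, 3.66 and 3.69 against 3.24, 3.43 and 3.23 in C57BL/6J, a difference of 0.39 (SE 0.0888, adjusted p = 0.00496) at signals under the array median. Liver had another order. The liver arrays read 3.39, 3.84 and 3.58 in A/J, against 4.44, 4.48 and 3.85 in C57BL/6J, and all arrays of 129S2, AKR/J, C3HeB/FeJ and DBA2/J read between 2.82 and 3.22. Ifi204 was therefore lower than in C57BL/6J in all 5 strains, by differences of -0.65 in A/J (SE 0.140, adjusted p = 0.00262) and -1.15 to -1.30 in the others (adjusted p of at most 1.33e-05). The macrophage list (10 of 10 genes) moved with it in liver, at 7.91 in 129S2, 8.13 in A/J, 7.88 in AKR/J, 7.75 in C3HeB/FeJ and 7.98 in DBA2/J, against 8.75 in C57BL/6J, where the arrays of the other strains reached 8.15 at most and those of C57BL/6J lay between 8.47 and 8.93. For 7 of the 10 genes all C57BL/6J liver arrays were above all others, among them Clec4f, a marker of Kupffer cells, at 9.04 to 9.50 in the other strains against 9.90 in C57BL/6J. The part of these cells in the Ifi204 result was not tested. In kidney the F test did not pass (adjusted p = 0.0713), and the difference of 129S2, -0.54 (SE 0.137, adjusted p = 0.0093, from arrays of which 2 may share an animal), was -0.34 without C57BL/6J array 10 (adjusted p = 0.0563), which read 4.33 beside 3.82 and 3.67. Without AKR/J array 1 the kidney F test passed at 0.043, and without C57BL/6J array 12 at 0.0215. In brain and heart Ifi204 did not pass, with adjusted p of 0.654 and 0.417.

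Ifi203 was the only member with signal above the median of the tissue in all 36 groups, and its differences were small. C57BL/6J was highest in heart and lung. The heart arrays of the other 5 strains read between 5.69 and 6.01, against 6.30, 6.16 and 6.46 in C57BL/6J, with no overlap. The difference from C57BL/6J in heart was -0.52 in DBA2/J, -0.51 in A/J and -0.48 in C3HeB/FeJ (SE 0.0911 each; adjusted p = 0.000851, 0.00147 and 0.00217), a fold change of 1.40 to 1.43. In AKR/J it was -0.42 (adjusted p = 0.009), lost without AKR/J heart array 3 (-0.37, 0.0529) or C57BL/6J heart array 4 (-0.34, 0.0674). In 129S2 it was -0.33 (adjusted p = 0.0445), and this call was lost in 14 of 24 alternatives, with adjusted p up to 0.22.

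In lung Ifi203 averaged 6.96 to 7.20 in the other strains, against 7.47 in C57BL/6J, and the F test passed with an adjusted p of 0.0122. Without C57BL/6J lung array 2, which read 7.63, that p was 0.0705. The lung difference was -0.51 in DBA2/J (SE 0.110, adjusted p = 0.00529) and -0.49 in AKR/J (SE 0.110, adjusted p = 0.00727). In A/J it was -0.43 (adjusted p = 0.0172), lost without A/J array 2 (-0.32, 0.0983) or C57BL/6J array 2 (-0.35, 0.0937). In 129S2 it was -0.40 (adjusted p = 0.0266), lost without C57BL/6J array 2 or 3 or 129S2 array 1 or 3 (adjusted p 0.0535 to 0.13). In C3HeB/FeJ it was -0.27 (95% interval -0.50 to -0.03, adjusted p = 0.132).

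In kidney Ifi203 was lower in DBA2/J (-0.37, adjusted p = 0.0167) and AKR/J (-0.34, adjusted p = 0.0334) than in C57BL/6J. Both calls were lost without C57BL/6J kidney array 10 (adjusted p = 0.0711 for DBA2/J and 0.124 for AKR/J) or array 11 (0.0525 and 0.0924). That of DBA2/J was also lost without its own array 1 (0.0639), and that of AKR/J without its own array 1 (0.0554) or 2 (0.193). In brain, liver and testis Ifi203 did not pass, with ranges of 0.19, 0.21 and 0.07.

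Aim2 was dim in all 36 groups, under the median of its tissue in each. In lung the arrays read 4.74, 4.57 and 4.93 in 129S2, against 4.49, 4.58 and 4.39 in C57BL/6J, and 4.08 to 4.56 in the remaining strains. The lung F test passed with an adjusted p of 0.0342 and a range of 0.51 between 129S2 (4.74 ± 0.180) and DBA2/J (4.24 ± 0.0837). This call was lost in 7 of 24 alternatives: when the lung arrays were quantile normalized once more (0.0613) and without 129S2 array 1 (0.0937) or 3 (0.157), DBA2/J array 1 (0.0662) or 2 (0.0612), AKR/J array 1 (0.0523) or C57BL/6J array 2 (0.0509). No strain passed against C57BL/6J in lung, and the 129S2 difference was 0.26 (95% interval 0.00 to 0.52, adjusted p = 0.213). In heart 129S2 was higher than C57BL/6J by 0.29 (adjusted p = 0.0454), a call lost in 16 of 24 alternatives with adjusted p up to 0.139, and the heart F test did not pass (adjusted p = 0.0886), except without 129S2 array 2 (0.0397).

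**Figure D4:**
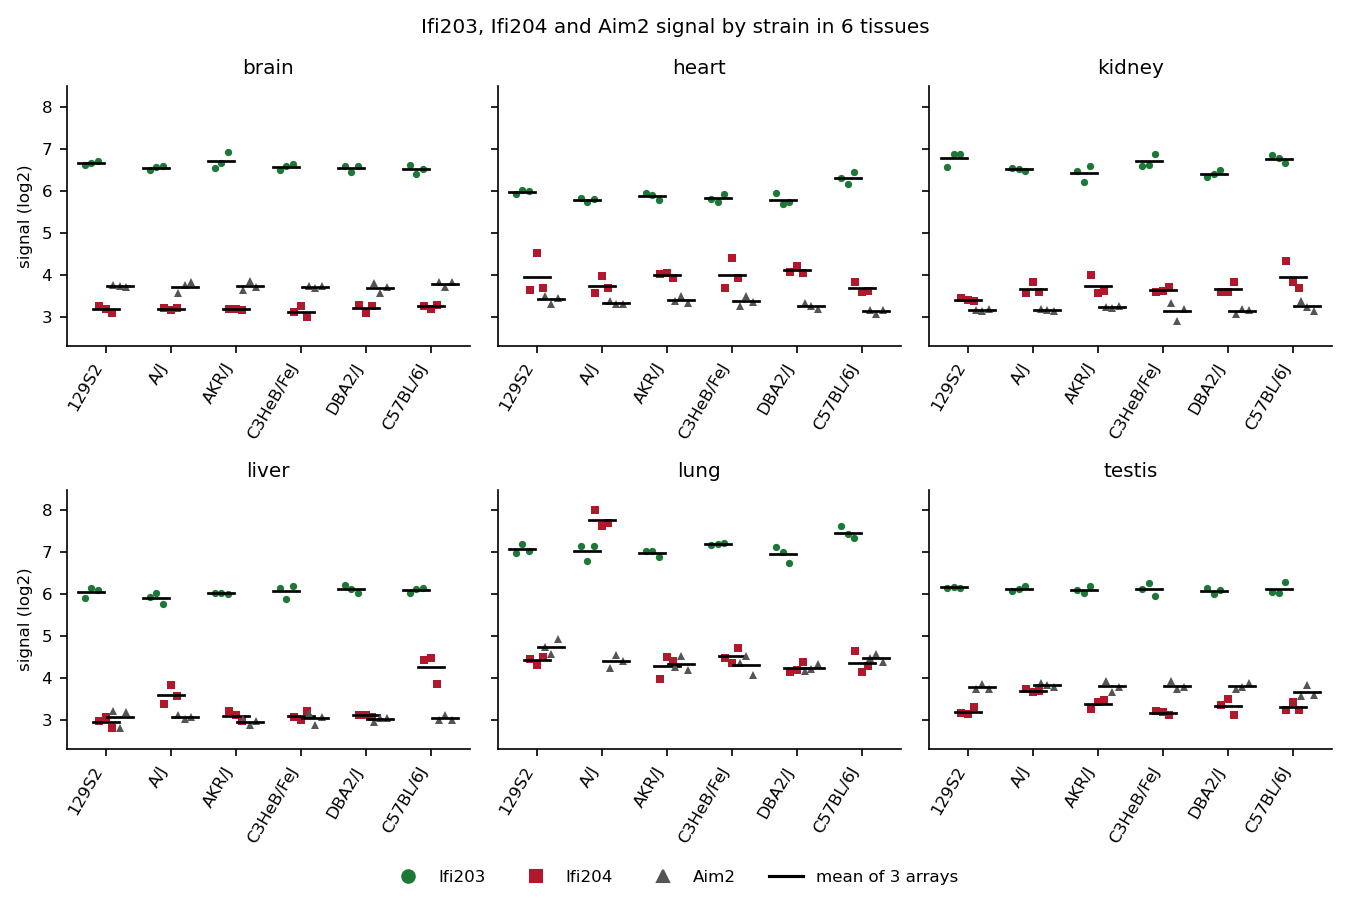
Signal of Ifi203 (circles), Ifi204 (squares) and Aim2 (triangles) on each array (log2, y axis) by strain (x axis) in 6 tissues, with bars at the mean of 3 arrays. Ifi204 is high in A/J lung, at 7.78 against 4.36 in C57BL/6J, and Aim2 stays below 5 on every array. Levels of different probe sets are not comparable.

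The remaining PYHIN genes with a single-gene probe set were Ifi207, Ifi209 and Ifi213, which lie among the members on chromosome 1 and were read by 5 probe sets. By the F test 5 of 5 passed in lung beside 31.7% of all probe sets, 4 in kidney beside 41.5% and 4 in liver beside 27.4%. In heart 3 passed beside 19.2%, in testis 1 beside 33.0% and in brain 0 beside 21.8%. In brain 1 had an unadjusted p under 0.05 by limma. Ifi209 (1435330_at) averaged 5.68 to 5.81 in the lungs of 5 strains, against 8.78 ± 0.635 in C57BL/6J (arrays 9.44, 8.71 and 8.18; range 3.09, adjusted p = 2.01e-08). Ifi213 (1437636_at) averaged 5.23 ± 0.257 in A/J lung and 4.24 to 4.46 in the lungs of 129S2, AKR/J, C3HeB/FeJ and DBA2/J, against 7.39 ± 0.262 in C57BL/6J (range 3.16, adjusted p = 1.88e-11). On these probe sets the C57BL/6J arrays stood above all others, which is neither the Mndal split nor the Ifi202b order. The other Ifi209 probe set, 1435331_at, did not separate C57BL/6J: its lung arrays read 7.86, 8.25 and 7.70 in A/J against 8.88, 8.07 and 7.82 in C57BL/6J, which overlap, and means of the remaining strains lay between 6.61 and 7.41.

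In liver Ifi209 (1435330_at), Ifi213 (1437636_at) and Ifi207 (1457035_at) were again highest in C57BL/6J. Ifi207 averaged 2.80 to 3.05 in the other 5 strains against 4.17 ± 0.0986 in C57BL/6J (range 1.37, adjusted p = 2.66e-07), with ranges of 1.40 for Ifi209 and 1.29 for Ifi213. In lung Ifi207 was highest in AKR/J, at 4.78 ± 0.203, and lowest in A/J, at 3.85 ± 0.0416 (range 0.93, adjusted p = 0.000222). In testis the Ifi209 probe sets ordered the strains differently, with AKR/J highest on 1435331_at (9.20) and C57BL/6J highest on 1435330_at (4.81).

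**Figure D5:**
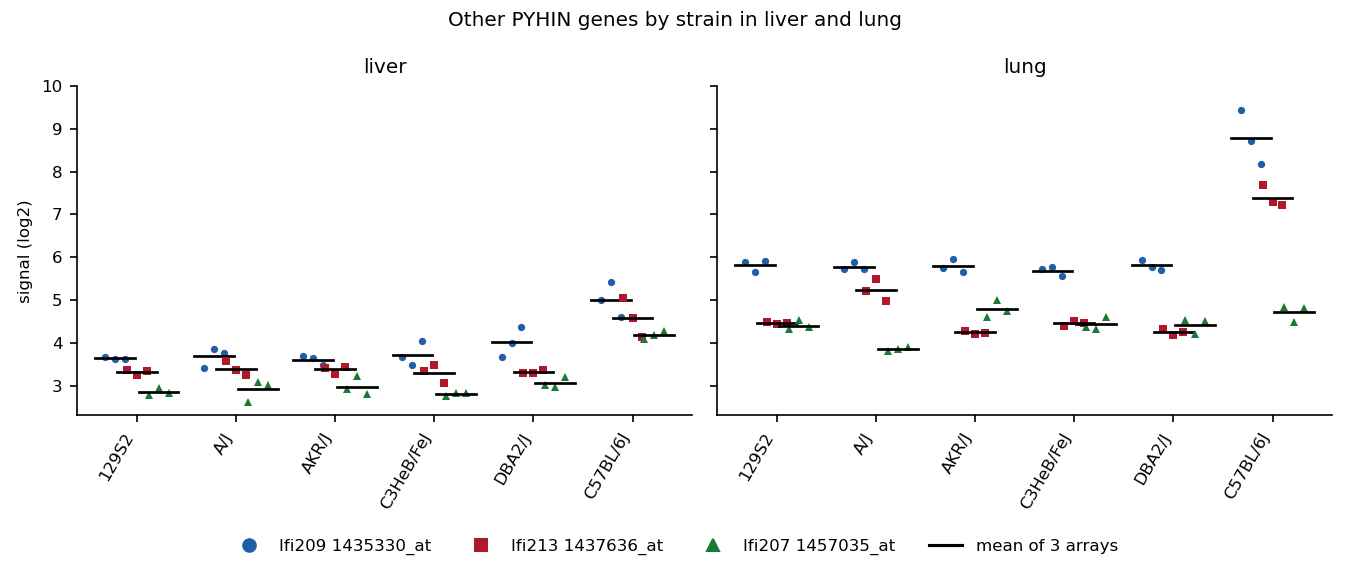
Signal of Ifi209 (circles), Ifi213 (squares) and Ifi207 (triangles) on each array (log2, y axis) by strain (x axis) in liver and lung, with bars at the mean of 3 arrays. In lung C57BL/6J stands alone for Ifi209 at 8.78 on 1435330_at, which 1435331_at (not plotted) did not share, and for Ifi213 at 7.39 on 1437636_at, and Ifi207 is highest in AKR/J at 4.78.

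Genes flanking the cluster were counted in the same way, taking the 10 genes on each side in the RefSeq order. Of these, 3 had single-gene probe sets: Cadm3, a neuronal adhesion molecule, Fcer1a, a chain of the IgE receptor, and Ackr1, an atypical chemokine receptor. All 3 lie before Aim2 in that order, so the side after Ifi202b, which holds the PYHIN gene Ifi205, was not measured. Cadm3 was read by 1418921_at, 1418922_at and 1449272_at. Of their 5 probe sets, 4 passed in brain, from 2 genes, beside 21.8% of all probe sets, and 1 in liver beside 27.4%. In heart, kidney, lung and testis 0 passed by limma, beside 19.2%, 41.5%, 31.7% and 33.0%. At an unadjusted p under 0.05 these 4 tissues had 1, 0, 0 and 0. The median range of strain means in lung was 0.18 for these flanking probe sets, 1.65 for the 5 of Ifi207, Ifi209 and Ifi213, and 0.27 for all probe sets.

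Pathway genes around the PYHIN members were examined as 3 lists. Of 48 probe sets of 28 interferon-stimulated genes, 37 passed in liver (77.1%, beside 27.4% of all probe sets), 32 in kidney (66.7% beside 41.5%), 23 in heart (47.9% beside 19.2%), 21 in lung (43.8% beside 31.7%), 21 in testis (43.8% beside 33.0%) and 14 in brain (29.2% beside 21.8%). In liver, where Mndal and Ifi204 were highest in C57BL/6J, 34 of the 48 fell and 1 rose in 129S2 relative to C57BL/6J, with a median difference of -0.56 beside 0.02 over all probe sets, of which 15.6% were called. All 30 calls in A/J liver (median -0.43) and all 19 in AKR/J liver (-0.32) were lower, 15 were lower and 1 higher in C3HeB/FeJ (-0.28), and 4 were lower and 4 higher in DBA2/J (0.02), beside 17.3%, 11.6%, 11.1% and 9.82% of all probe sets called. The macrophage list was lower in each of these livers than in C57BL/6J, as given for Ifi204, and its part in the list's differences was not tested. Liver Ifi202b was higher than in C57BL/6J in all 5 strains at the same time. In kidney the calls of the list were also mostly lower: 20 in 129S2, 17 in A/J, 11 in AKR/J, 20 in C3HeB/FeJ and 22 in DBA2/J. At most 2 per strain were higher there, with medians from -0.26 to -0.10, beside 14.6% to 19.7% of all probe sets called. Heart had 9, 11, 5, 5 and 10 lower in the same order and at most 2 higher, beside 4.68% to 11.4%. Brain and testis had at most 8 lower and 6 higher per strain. In lung, where the PYHIN differences were widest, the median difference of the list lay between -0.13 in 129S2 and 0.03 in DBA2/J, with 2 to 8 probe sets lower and 1 to 6 higher per strain. The widest lung ranges in the list were those of Xaf1 (5.32), an apoptosis factor, Ifi27l2a (1.86), and Iigp1 (1.36), an immunity-related GTPase.

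Of 32 probe sets of 17 genes of DNA sensing and the inflammasome, 15 passed in kidney (46.9%), 12 in lung (37.5%), 11 in liver (34.4%), 10 in testis (31.2%), 8 in heart (25%) and 5 in brain (15.6%), which is near the shares of all probe sets (41.5%, 31.7%, 27.4%, 33.0%, 19.2% and 21.8%). Pycard, the adaptor that Aim2 recruits, had on 1417346_at ranges of 1.5 in heart (adjusted p = 9.97e-07), where DBA2/J averaged 8.03 and AKR/J 6.52, and 1.29 in kidney (adjusted p = 1.05e-07). Il18, a cytokine that caspase-1 matures, averaged 10.65 in C3HeB/FeJ lung against 9.39 in C57BL/6J lung (adjusted p = 1.18e-05 for limma's F test). Casp4, the inflammatory caspase that senses lipopolysaccharide, averaged 8.93 in AKR/J lung and 7.76 in 129S2 lung (adjusted p = 9.16e-07). Of 24 probe sets of 14 interferon signalling genes, 13 passed in kidney (54.2%), 10 in liver (41.7%), 10 in testis (41.7%), 7 in lung (29.2%), 5 in heart (20.8%) and 4 in brain (16.7%). These were above the shares of all probe sets in kidney, liver and testis (41.5%, 27.4% and 33.0%). They were near those in lung, heart and brain (31.7%, 19.2% and 21.8%). Usp18, which restrains the type I interferon receptor, had its widest range in liver (1.78, adjusted p = 7.21e-05), with 8.06 in DBA2/J and 6.29 in 129S2.

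The tissue labels held: on 18 of 18 arrays of each tissue the mean of its own markers was above those of the other 5 tissues' lists. Because PYHIN genes are expressed in white blood cells, marker lists of those cells are given for lung too. The macrophage list (10 of 10 genes measured) averaged 8.91 in 129S2, 8.78 in A/J, 8.88 in AKR/J, 8.90 in C3HeB/FeJ and 8.52 in DBA2/J, against 8.85 in C57BL/6J. Single markers of the list spread more: Marco averaged 9.23 in 129S2, 7.88 in A/J, 7.16 in AKR/J, 6.83 in C3HeB/FeJ and 5.90 in DBA2/J, against 7.26 in C57BL/6J, Cd68 lay between 8.51 in DBA2/J and 9.79 in AKR/J, and Mrc1 between 9.52 in DBA2/J and 10.61 in AKR/J. The dendritic cell list (4 of 4) lay between 7.34 and 7.59 and the T and NK cell list (7 of 7) between 7.71 and 8.08. Wider spreads were seen for neutrophil markers (5 of 6), from 7.89 in 129S2 to 9.56 in C3HeB/FeJ, against 10.47 in C57BL/6J, for plasma cell markers (2 of 4), from 7.27 in DBA2/J to 11.64 in 129S2, against 8.80 in C57BL/6J, and for B cell markers (3 of 4), from 8.30 in C3HeB/FeJ to 9.16 in A/J, against 9.26 in C57BL/6J. In A/J lung, where Ifi204 was high, these lists read 9.27, 9.23 and 9.16. Adipose (3 of 5) and skeletal muscle markers (4 of 4) were highest in C3HeB/FeJ lung, at 7.79 and 8.08, against 6.34 and 5.79 in C57BL/6J. The C3HeB/FeJ muscle mean was carried by 1 array (lowest array 6.56, highest 10.69). Heart markers (4 of 4) also averaged 10.64 in C3HeB/FeJ lung and 8.40 in A/J lung, against 8.46 in C57BL/6J lung. In the adipose and muscle lists some defining markers stayed low in every strain, with Lep at 4.17 to 5.03 and Myh4 at 4.02 to 4.21, and no value of the log2 scale was at 0. The part of these cells in the PYHIN differences was not tested.

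Across the 36 group means with the mean of each tissue subtracted, Mndal and Ifi202b ran in opposite directions, with r = -0.68 for 1426906_at and -0.70 for 1452231_x_at. Ifi203 followed Mndal with r = 0.66 for both probe sets and ran against Ifi202b with r = -0.70. Ifi204 had r between -0.21 and -0.09 with Mndal, Ifi202b and Ifi203, and Aim2 had r = 0.32 with Mndal on 1426906_at. The points share arrays and strains, so these values are descriptions. By the same measure, the genes outside the members with the pattern most like Mndal (1452231_x_at) were Wdr26 (r = 0.819), Egfl7 (0.816) and Dmwd (0.808), of which Wdr26 also lies on chromosome 1. Most like Ifi202b were Ciapin1 (0.841), Mfsd11 (0.839) and Atp9a (0.830), and most like Ifi204 were Gm32633 (0.803), Efnb2 (0.776) and Mobp (0.759). For Ifi203 they were Hspg2 (0.764), Tob2 (0.755) and Telo2 (0.745). For Aim2 they were Ikzf3 (0.758), Cd247 (0.754) and Thy1 (0.723), of which Cd247 also lies on chromosome 1.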

How the data were processed

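RNA of 6 tissues of male mice of 6 inbred strains, with 3 arrays for each strain and tissue, was hybridised to 1-colour Affymetrix arrays (45101 probe sets). The deposited values are log2 intensities, which the authors made with RMA per the submitters' processing notes (version not stated). No label says whether the tissues were processed in 1 run, so levels were compared within a tissue. Precision is limited by the number of arrays.

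Groups were read from the array titles. The titles name 22 animals, most of them giving several tissues. On 4 arrays, 3 of 129S2 brain and 1 of 129S2 kidney, the title and the source name carry different animal numbers, and a protocol label speaks of pools, so p-values measure the spread between these arrays, which may be partly technical. Replicates correlated at 0.980 or above and shared at most 0.166% of identical values.

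Control probe sets (64), probe sets of several genes (932) and those with no gene (9160) were left out, which kept 34945, and 34741 of these matched the RefSeq gene table through the gene identifier. In each tissue limma 3.58.1 (R 4.3.3) fitted the 6 strains over 18 arrays. The F test over strains and each difference from C57BL/6J were adjusted by the Benjamini-Hochberg method over the 34945 probe sets, and the threshold was 0.05. The interaction of strain and tissue was fitted over all arrays with arrays of 1 animal taken as a random block, whose estimated correlation was 0.0186. The fits were tested on simulated data. The PYHIN genes, the gene lists and the tests were chosen with earlier results of these data known. Genes named outside the members were the 3 most correlated per gene over the 36 tissue-centred means and those with the widest ranges in each list. Alternatives were a filter on dim probe sets, 1 probe set a gene, centring, a further quantile normalization, a trended variance prior, a replicate block and leaving out each array. Promoter sequences are from RefSeq (GRCm38.p6), searched on both strands and aligned in pairs with Biopython 1.88.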

Additional observations from a re-analysis of the deposited data

Results flagged for a closer look

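The strain differences of all 6 PYHIN probe sets differed between tissues by limma's F test of the interaction of strain and tissue, which 65.3% of all probe sets also passed. For Mndal the adjusted p was 3.76e-58 on 1426906_at, whose range of strain means was 7.07 in lung and 0.74 in testis. On 1452231_x_at it was 1.84e-32, with ranges of 4.86 in liver and 0.94 in testis. For Ifi204 it was 4.26e-30, with a range of 3.53 in lung and 0.13 in brain. For Ifi202b it was 3.94e-27, with ranges of 4.52 in lung and 0.33 in brain. For Ifi203 it was 0.000252 and for Aim2 0.0194, where the ranges stayed at or below 0.52 in every tissue. The groups hold 3 arrays each, so no array was tested as an outlier of its group.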

How the results depend on the processing

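The 133 single PYHIN results followed were the F tests, the interaction tests and the differences from C57BL/6J called as reported. Over 3210 values from the alternatives, 3137 kept their side of the threshold, 67 lost a call and 6 gained one. A direction could reverse only in the called differences, where none did, and a call could be gained only in the F tests. Uncalled differences were not followed singly, so any call they gained is outside this tally. The changed values belonged to Ifi203 (30), Aim2 (26), Mndal (11) and Ifi204 (6), and none to Ifi202b. Restricting the tests to probe sets with a mean of at least 6 leaves members out by construction. Under that filter the F test passed for 1 PYHIN probe set in heart, 2 in kidney and 0 in brain, liver and testis, against 4, 4, 2, 4 and 4 without it. The differences from C57BL/6J called were then 3 in heart, 7 in kidney and 0 in brain, liver and testis, against 17, 17, 9, 20 and 12. These drops come from the probe sets left out: no single result followed for a kept probe set changed its call, in lung or elsewhere. With 1 probe set a gene, 1 Mndal probe set drops out, and brain had 1 F call and 4 called differences. Over all probe sets that setting passed 4203, 3824, 8389, 5756, 5913 and 7371 in brain, heart, kidney, liver, lung and testis, against 7624, 6707, 14519, 9580, 11081 and 11533. Leaving out 1 array at a time gave 2 to 2, 4 to 5, 4 to 5, 4 to 4, 4 to 6 and 4 to 4 F calls in these tissues, 8 to 10, 14 to 17, 12 to 17, 20 to 20, 14 to 16 and 12 to 12 called differences, and 5 to 6 interaction calls. A replicate block left the counts at 2, 4, 4, 4, 6 and 4 F calls and 9, 17, 17, 20, 16 and 12 differences. Same-numbered arrays deviated with r from -0.5 to 0.44, so the numbers were not taken as pairs. With 3 arrays a group, small differences such as those of Ifi203 and Aim2 are near the limit of these tests.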

Other observations

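Probe sets assigned to several PYHIN genes were kept out of the tests and are given by identifier, as lung means without a test. Probe set 1448775_at averaged 9.10 in 129S2, 9.10 in A/J, 4.72 in AKR/J, 9.64 in C3HeB/FeJ and 4.87 in DBA2/J, against 9.92 in C57BL/6J. It was thus low in AKR/J and DBA2/J but not in A/J. Probe set 1452348_s_at was lowest in A/J, at 5.26, with 8.82 in 129S2, 7.88 in AKR/J, 8.70 in C3HeB/FeJ and 7.46 in DBA2/J, against 8.92 in C57BL/6J.

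Probe set 1457666_s_at averaged 7.62 in 129S2, 7.96 in A/J, 8.49 in AKR/J, 8.21 in C3HeB/FeJ and 8.07 in DBA2/J, against 4.31 in C57BL/6J, so C57BL/6J was lowest there, as for Ifi202b. Probe set 1425008_a_at was highest in A/J, at 7.94, the strain with high Ifi204 in lung, and read 4.51 to 5.91 in the lungs of 129S2, AKR/J, C3HeB/FeJ and DBA2/J, against 6.24 in C57BL/6J. Probe set 1451567_a_at had a narrow spread, from 9.01 to 9.70 in the other strains against 8.94 in C57BL/6J. What each of these probe sets binds in each strain was not tested.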
